A study of Mus musculus with 14 samples.

Results

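Histones, Polycomb proteins and the enzymes that write and erase histone and DNA marks were examined in the mouse hippocampus after intermittent hypoxia (IH) and sustained hypoxia (SH). Genes were chosen by symbol, as linker and core histones, subunits of Polycomb repressive complexes 1 and 2 (PRC1 and PRC2), Asxl, and the Kdm, Kmt, Setd, Hdac, Sirt, Kat, Tet and Dnmt families. The rule found 47 of the 7756 genes in the count table. Of these, 46 reached a mean of 40 counts in each group and were tested, within a fit of 7338 genes. Other genes of the same machinery were examined only as lists, with their leading genes named.

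RNA sequencing (RNA-seq) data comprised 4 control, 5 IH and 5 SH libraries, all from wild-type (WT) C57BL/6J males that were 8 weeks old when the experiment began. Exposure lasted 28 days, during which the oxygen of IH mice moved between 10% and 21% in cycles of 2 min for 8 h per day. SH mice breathed 10% oxygen for 8 h per day, and controls breathed 21% throughout. Behavioral testing came before tissue collection in the study's protocol. The controls were mice of a preliminary experiment, so the source of the libraries and the exposure cannot be told apart in any difference from control. IH and SH mice came from the same experiment, but the methods give them different gas delivery systems, with SH cages inside an acrylic box with a fan. Equipment and oxygen pattern therefore cannot be told apart in IH vs. SH. The labels do not say whether each library is 1 animal, and p-values measure the spread between these libraries.

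The total count per library on the deposited genes was between 7203663 and 11777102. According to the methods, genes had been kept for a signal that differed from control, so shares of changed genes hold only within this table. The hippocampal label held, as the summed normalized count of 12 pyramidal neuron markers was between 122472 and 158291 in every library and that of 9 dentate granule cell markers between 7783 and 17151. Choroid plexus markers ranged from 4668 to 127484 within the control group, from 5717 to 77349.7 within IH and from 5582 to 94576 within SH. The 9 oligodendrocyte markers in the table reached 193096 in IH replicate 5, against 73787 to 146313 elsewhere. Of the markers tested, all 4 of erythrocytes were lower in IH, 3 of 6 of microglia were lower in SH, 2 of 9 of oligodendrocytes were higher in each exposure, and 1 and 2 of 9 of dentate granule cells were higher in IH and SH. The astrocyte marker Gjb6 (1 of 2 tested) was higher in each exposure, the endothelial markers Ly6c1 in IH and Flt1 and Slco1a4 in SH (of 7) were higher, and the pyramidal marker Slc17a7 (1 of 12) was lower in SH. In IH vs. SH, microglial C1qc was higher and Slco1a4 lower. None of the 19 choroid plexus markers changed in any comparison. The part of cell composition in the results was not tested beyond a fit with a choroid plexus covariate. In whole tissue, fewer cells of a type and less RNA per cell cannot be told apart.

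DNA in the nucleus is wound around core histones H2A, H2B, H3 and H4 and is packed further by linker histone H1. PRC2 methylates histone H3 and PRC1 ubiquitinates histone H2A, and both hold developmental genes silent. The Jumonji C (JmjC) demethylases of the Kdm family and the Tet enzymes, which oxidise methylcytosine, need molecular oxygen, iron and 2-oxoglutarate, whereas sirtuins need NAD. Most core histone genes belong to clusters that are transcribed during DNA replication and whose transcripts end in a stem-loop instead of a poly(A) tail, and these libraries were poly(A)-selected.

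Promoter sequences of 4 genes are shown because their transcripts differed between groups and because they contrast in composition. H1f10 encodes a linker histone, Phc3 a PRC1 subunit, Kdm7a a JmjC demethylase and H2bc8 a replication-dependent histone H2B. The 250 bases before the transcription start are from RefSeq on build GRCm38.p6, 5′ to 3′ on the strand of the gene. They lie at chr6:87981483-87981732 (minus strand) for H1f10, chr3:30969416-30969665 (minus strand) for Phc3, chr6:39206774-39207023 (minus strand) for Kdm7a and chr13:23571150-23571399 (plus strand) for H2bc8. Capitals mark ACGTG or GCGTG, the core of the hypoxia response element, on either strand in the first 3 sequences. In H2bc8 they mark TATAAA as well as CCAAT and the octamer ATTTGCAT on either strand.
H1f10: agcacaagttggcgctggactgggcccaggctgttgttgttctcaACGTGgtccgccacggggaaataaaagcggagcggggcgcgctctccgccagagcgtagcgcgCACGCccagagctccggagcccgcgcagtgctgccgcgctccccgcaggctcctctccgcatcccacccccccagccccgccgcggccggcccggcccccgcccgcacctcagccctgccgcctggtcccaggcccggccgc
Phc3: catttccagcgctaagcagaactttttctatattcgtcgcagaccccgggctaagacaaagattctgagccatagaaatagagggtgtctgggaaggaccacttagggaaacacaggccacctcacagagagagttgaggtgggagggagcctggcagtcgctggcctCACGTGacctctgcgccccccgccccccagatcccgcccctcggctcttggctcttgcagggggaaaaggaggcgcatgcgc
Kdm7a: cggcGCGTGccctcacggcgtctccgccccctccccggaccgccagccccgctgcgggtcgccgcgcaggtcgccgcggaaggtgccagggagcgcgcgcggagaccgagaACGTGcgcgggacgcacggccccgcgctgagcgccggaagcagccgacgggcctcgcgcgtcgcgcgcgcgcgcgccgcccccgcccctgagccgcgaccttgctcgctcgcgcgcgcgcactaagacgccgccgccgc
H2bc8: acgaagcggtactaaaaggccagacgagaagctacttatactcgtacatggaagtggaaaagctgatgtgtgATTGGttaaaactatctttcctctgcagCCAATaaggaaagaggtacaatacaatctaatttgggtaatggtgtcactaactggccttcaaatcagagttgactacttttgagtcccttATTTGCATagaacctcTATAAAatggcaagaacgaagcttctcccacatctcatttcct

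The H1f10 and Kdm7a windows had a GC content of 75.2% and 82.0%, and each held 1 ACGTG and 1 GCGTG. In Phc3 the capitals are CACGTG, which reads as ACGTG on both strands. The H2bc8 window had a GC content of 40.4%. It held 1 copy of TATAAA and of ATTTGCAT and 2 copies of CCAAT. Windows were found for 36 of the 47 genes, some with several start sites, and a gene was counted for a motif where any of its windows held it. ACGTG was present in 41.7% of these genes and in 18.5% of the 27025 genes with windows of the same length, and GCGTG in 41.7% and 30.9%. CACGTG, which also counts as ACGTG, was in 13.9% and 6.86%, CCAAT in 52.8% and 37.5%, TATAAA in 11.1% and 14.3%, and ATTTGCAT in 8.33% and 1.81%. The 27025 genes were not limited to those in the count table and were not matched for GC content, so the 2 sets are unlike. These matches describe letters and not binding.

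Of the 46 tested genes, 14 changed in at least 1 comparison, most of them by less than 1.5-fold. The same count was not made over all genes. For each comparison with control, the shares that changed were near those of all genes. In IH vs. control, 4 were higher (8.70%, against 6.08% of all genes) and 2 lower (4.35%, against 4.85%) by edgeR's quasi-likelihood test at an adjusted p under 0.05. The higher genes were Pcgf5, H2az2, H2bc6 and Kdm7a, and the lower ones were H1f10 and Hdac5. In SH vs. control, 5 were higher (10.9%, against 10.1%) and 6 lower (13.0%, against 10.5%). Phc3, Pcgf3, Suz12, H2bc8 and Kdm7a were higher, and H1f10, H2ax, Setd1b, Hdac5, Hdac11 and Sirt6 were lower. In IH vs. SH, none was higher (1.47% of all genes) and 2 were lower, H1f10 and Phc3 (4.35%, against 0.899% of all genes). With the 80th percentile scaling of the study the calls were 2 higher and 2 lower for IH against control and 1 higher and 2 lower for IH against SH, and for SH against control DESeq2 gave 8 higher and 5 lower and library total scaling 7 and 5. In the same order, these fits called 823, 185, 1708 and 1543 of all 7338 genes. The comparisons with control share the control libraries. Below, a gene passed or changed where its adjusted p was under 0.05 in the edgeR fit of all 3 groups with TMM scaling, unless another fit is named.

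The 46 genes had a median log2 fold change of 0.033 for IH against control, 0.11 for SH against control and -0.0050 for IH against SH, beside -0.015, 0.0035 and -0.0039 over all 7338 genes. With the cut-offs of the study, 0.58 for the log2 fold change in either direction and 0.05 for the unadjusted p, 1 gene was higher and 1 lower in IH vs. control, beside 1.55% and 1.13% of all genes. In SH vs. control 2 were higher and 1 lower, beside 1.21% and 1.5%, and in IH vs. SH none was higher and 2 were lower, beside 0.572% and 0.409%. These genes were H2bc6 and H1f10 in IH vs. control, Phc3, H2bc8 and H1f10 in SH vs. control, and Phc3 and H3c14 in IH vs. SH, where H1f10 did not reach the fold limit. Libraries of the groups did not overlap for 5 genes higher in IH than in control and 3 lower, beside 7.66% and 7.48% of all genes. They did not overlap for 4 genes higher in SH than in control and 7 lower, beside 8.76% and 10.6%, nor for 1 gene higher in IH than in SH and 2 lower, beside 2.63% and 1.83%.

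**Figure D1:**
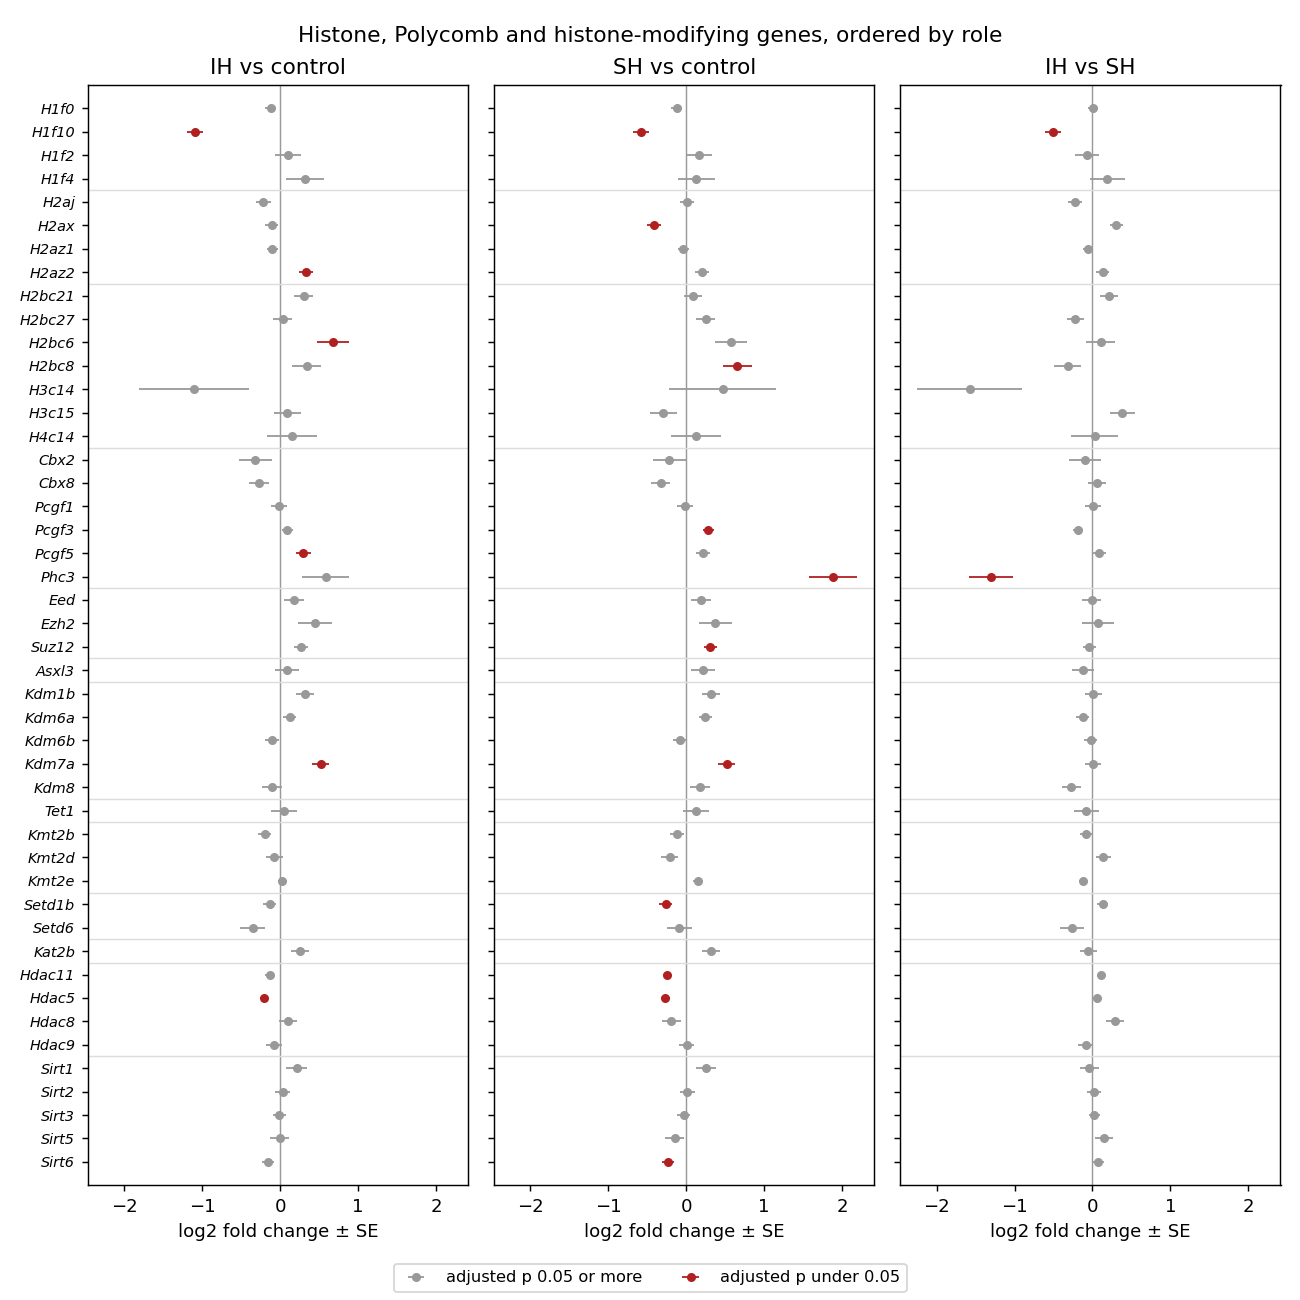
Log2 fold change with its standard error (x axis) of the 46 tested genes (y axis, grouped by role) in each of the 3 comparisons. Red points had an adjusted p under 0.05 in edgeR's quasi-likelihood test, and H1f10 is the only gene red in all 3 panels.

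Differences from control moved with base composition. Over the 46 genes, Pearson's correlation between the GC content of the transcript and the log2 fold change was -0.62 for IH and -0.60 for SH against control, as a description across genes, which are not independent replicates. For IH against SH it was 0.055. Over the 7293 tested genes with a known transcript it was -0.40, -0.49 and 0.15 in the same order. The 5 genes higher in SH had transcripts of 39.6% to 53.7% GC, and the 6 lower ones 54.2% to 71.3%. When trends of each library with GC content and length were removed, 2 genes were higher and 1 lower in IH than in control, 4 were higher and none lower in SH than in control, and 1 was lower in IH than in SH. Of the 4, H2bc27 had not been called without this step. The part of base composition in the individual differences was not tested beyond this fit.

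**Figure D2:**
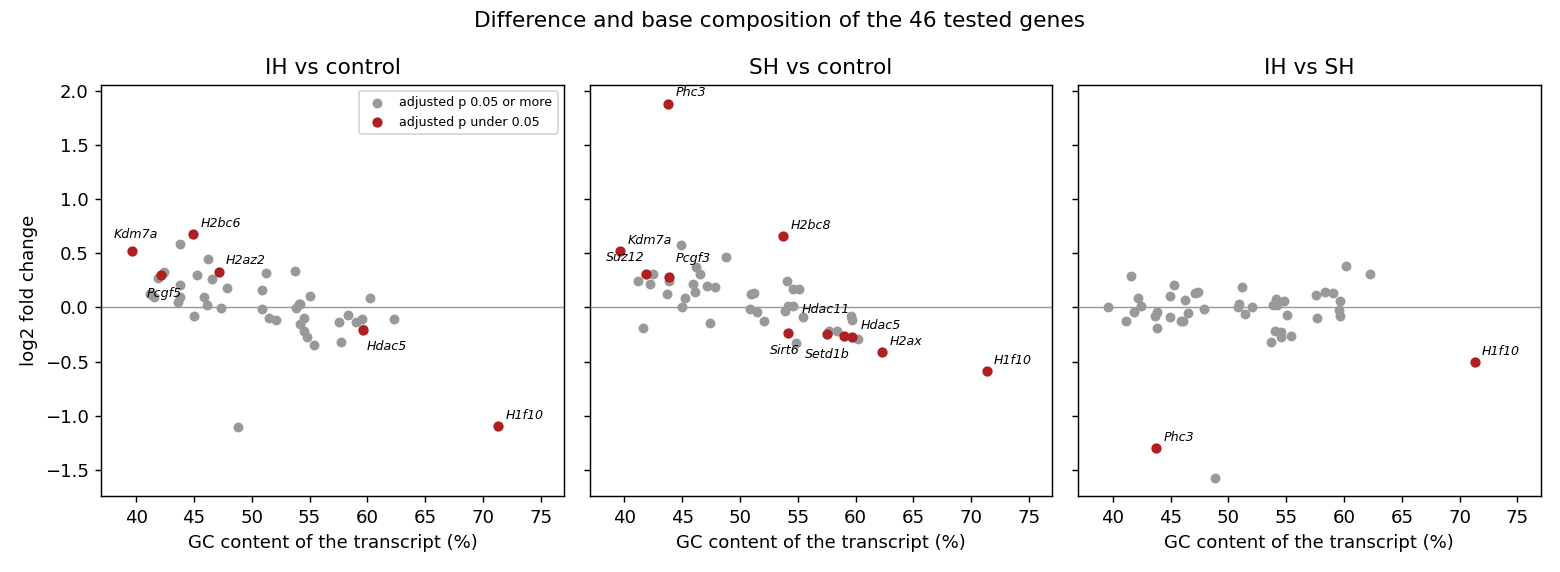
Log2 fold change (y axis) against the GC content of the transcript in percent (x axis) for the 46 tested genes in the 3 comparisons, with genes at an adjusted p under 0.05 in red and named. Points fall from left to right in the 2 panels against control, and H1f10 lies at the far right, at 71.3% GC.

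Among linker histones, H1f10 was lowest in IH, intermediate in SH and highest in control. H1f10 (ENSMUSG00000044927, chr6:87957403-87958619, minus strand, GRCm39) encodes a linker histone made outside of DNA replication and transcribed from a gene whose transcript is the most GC-rich of the 47. Its normalized counts were 899, 1010.2, 801 and 953 in the control libraries, 458, 416, 479, 400.1 and 393 in IH, and 743, 538, 594, 631 and 542 in SH. No library of any group overlapped another group. The means were 916 ± 89.0 (SD, n = 4), 429 ± 37.6 (SD, n = 5) and 609.5 ± 83.8 (SD, n = 5).

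IH was 53.1% below control in H1f10 (log2 fold change -1.09, SE 0.10, adjusted p = 6.28e-05, edgeR). SH was 33.4% below control (-0.59, SE 0.10, adjusted p = 0.00199, edgeR). IH was 29.6% below SH (-0.51, SE 0.10, adjusted p = 0.0158, edgeR), a comparison within 1 experiment but between different gas delivery systems. With the GC content and length trends removed, the IH difference was -0.60 from control (adjusted p = 0.00106, edgeR) and -0.60 from SH (adjusted p = 0.000663, edgeR). The SH difference from control was then 0.00086 (adjusted p = 0.996, edgeR).

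The other 3 linker histone genes passed no test. H1f0, a linker histone of non-dividing cells, had 1096 normalized counts per kilobase in control, above the 753 of H1f10, as levels per transcript length. It differed by -0.12 on the log2 scale (SE 0.07) from control in each exposure and by 0.0034 between the exposures. H1f2 and H1f4, linker histones of the replication-dependent cluster on chromosome 13, stood at 289 and 27.3 per kilobase in control. H1f4 overlaps H2bc6 in part on the same strand, so reads of this pair may be shared.

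**Figure D3:**
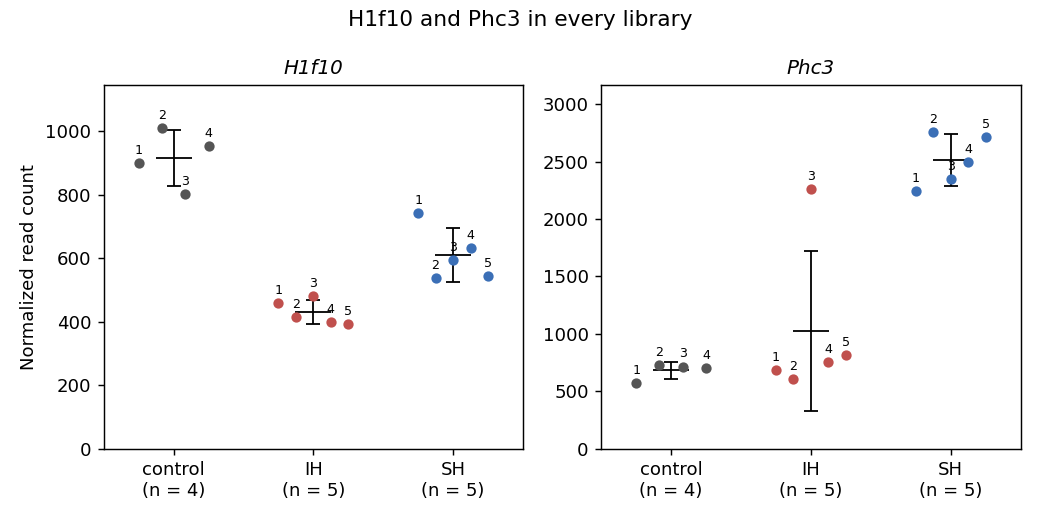
Normalized read counts (y axis) of H1f10 and Phc3 in each library (points, with replicate numbers) of the control, IH and SH groups (x axis), with bars for the mean ± SD. The H1f10 groups are separate, whereas IH replicate 3 lies at 2258 in Phc3, inside the SH range.

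Among PRC1 subunits, Phc3 was higher in SH. Phc3 (ENSMUSG00000037652, chr3:30953515-31023566, minus strand, GRCm39) encodes a polyhomeotic protein, which lets PRC1 assemble into larger bodies. Its normalized counts were 573, 729, 715 and 704 in control, 683, 604, 2258, 751 and 817 in IH, and 2239.8, 2758, 2350.0, 2500.1 and 2712 in SH. All SH libraries were above all control libraries, and 4 of the 5 IH libraries lay near control while replicate 3 lay within the SH range. SH was 3.69-fold above control (log2 fold change 1.88, SE 0.31, adjusted p = 0.00133, edgeR).

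IH did not pass the test against control in Phc3 (0.58, SE 0.30, adjusted p = 0.200, edgeR) and was below SH (-1.30, SE 0.28, adjusted p = 0.0244, edgeR). Without IH replicate 3, the IH difference was 0.07 from control (adjusted p = 0.671, edgeR) and -1.81 from SH (adjusted p = 3.00e-07, edgeR). The mean of the other 4 IH libraries was 714 ± 91.3 (SD, n = 4), and replicate 3 was 3.16 times as high. With the GC content and length trends removed, IH vs. SH no longer passed (-1.25, adjusted p = 0.0508, edgeR). It also did not pass in the fit of only these 2 groups (-1.30, adjusted p = 0.0740, edgeR), or without IH replicate 1, 2 or 4 or SH replicate 2 or 4 (-1.16 to -1.30, adjusted p between 0.0526 and 0.0660, edgeR). No protein-coding gene overlapped Phc3 in the annotation, but 1 gene of another type did on the same strand, so reads may be shared.

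The other PRC1 genes moved less. Pcgf3, a RING-finger partner in variant PRC1, had 1097, 1126, 1229 and 1212 normalized counts in control, 1409.6, 1195, 1213, 1171 and 1232 in IH, and 1338, 1473, 1484, 1457 and 1352 in SH. The SH libraries were all above the control libraries, whereas IH overlapped both. SH was above control by 0.28 on the log2 scale (SE 0.07, adjusted p = 0.00969, edgeR). Pcgf5, its close relative, was higher in IH by 0.30 (SE 0.09, adjusted p = 0.0486, edgeR), with group means of 451 ± 34.1 (SD, n = 4) in control and 555 ± 68.1 (SD, n = 5) in IH. Its groups overlapped, since IH replicate 4 stood at 482 and control replicate 4 at 501.

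The Pcgf3 call was lost in 1 alternative, when the GC content and length trends were removed (adjusted p = 0.161, edgeR). The Pcgf5 call was lost in 17 of 23, among them this one (adjusted p = 0.354, edgeR), the 80th percentile scaling and leaving out any of 11 libraries. Pcgf3 overlaps Slc49a3 on the opposite strand. Pcgf1, the third RING-finger partner in the table, and the chromodomain subunits Cbx2 and Cbx8 passed no test. Cbx8 ranged from 223 to 299 normalized counts in control, from 193 to 219 in IH and from 153 to 218 in SH, so that no exposed library reached the control range.

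The PRC2 core genes Suz12, Ezh2 and Eed had positive log2 fold changes against control, between 0.18 and 0.45 in IH and between 0.19 and 0.37 in SH. Suz12, the scaffold of PRC2, was the 1 gene of the 3 that passed. Control libraries held 835, 849, 843 and 829 normalized counts, against 1106, 952, 1011, 1012 and 974 in IH, and 845, 1119, 985, 1071 and 1176 in SH. All IH libraries were above control, and SH replicate 1 lay among the control values.

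Suz12 rose by 0.31 in SH (SE 0.08, adjusted p = 0.0199, edgeR) and differed by 0.27 in IH (SE 0.08, adjusted p = 0.0526, edgeR). With the GC content and length trends removed, the SH difference was 0.13 (adjusted p = 0.317, edgeR), without control replicate 1 it was 0.31 (adjusted p = 0.0505, edgeR), and with the replicate number as a block it was 0.29 (adjusted p = 0.0517, edgeR). The IH difference passed in 5 of 23 alternatives, by DESeq2 (adjusted p = 0.0301), with library total scaling, when IH and control were fitted alone, and when SH replicate 1 or 5 was left out. Ezh2, the methyltransferase, had 87.4 to 187 normalized counts in control and 131 to 230.2 in exposed libraries, and overlaps Cul1. Asxl3, a partner of the deubiquitinase that opposes PRC1, passed no test.

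Replication-dependent core histone transcripts stood at 28.6 to 348 normalized counts per kilobase in control. Of the 7 genes, 1 was higher in IH, H2bc6, and 1 in SH, H2bc8, beside 6.08% and 10.1% of all genes. None was lower, beside 4.85% and 10.5% of all genes. H2bc8, a histone H2B gene, had 67.3, 90.8, 87.5 and 106 normalized counts in control, 112, 108, 125, 93.1 and 118 in IH, and 164, 101, 108, 171 and 147 in SH. SH replicate 2 fell below the highest control library. SH was above control by 0.66 (SE 0.19, adjusted p = 0.0233, edgeR), and by 0.85 with the GC content and length trends removed (adjusted p = 0.0120, edgeR). It did not pass with the replicate block (adjusted p = 0.0536, edgeR), without control replicate 1 (0.55, adjusted p = 0.0799, edgeR) or without SH replicate 4 (0.57, adjusted p = 0.0576, edgeR).

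H2bc8 shares near-identical sequence with 10 other genes, H2bc6 among them, so that its reads are uncertain and may be shared with H2bc6. H2bc6, another histone H2B gene, had 90.1, 115, 94.5 and 123 normalized counts in control, 189, 143, 166, 163 and 183 in IH, and 158, 82.0, 170.1, 181 and 195 in SH. All IH libraries were above all control libraries, and SH replicate 2 was below every control library. IH was above control by 0.68 (SE 0.21, adjusted p = 0.0469, edgeR). This call was lost in 17 of 23 alternatives (0.58 to 0.76, adjusted p between 0.0506 and 0.129, edgeR).

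H2bc27, a histone H2B gene outside the large clusters, had 295 to 321 normalized counts in SH and 233 to 294 in control. It passed the test after the GC content and length trends were removed (0.44, adjusted p = 0.0378, edgeR, against 0.25, adjusted p = 0.152, without this step). H3c14, named after its values were seen, encodes histone H3 and varied within IH. It had 130.1, 119.8, 55.8 and 129 normalized counts in control, 90.9, 4.45, 7.16, 4.23 and 139 in IH, and 161, 157, 102, 139.9 and 189 in SH. IH replicates 2, 3 and 4 lay under every other library, while replicate 1 lay within the control range and replicate 5 above it.

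H3c14 had no adjusted p under 0.05, with log2 fold changes of -1.11 (SE 0.70) for IH and 0.47 (SE 0.69) for SH against control and -1.57 (SE 0.67) between the exposures. The last met the cut-offs of the study (unadjusted p = 0.0335, adjusted p = 0.259, edgeR). Its neighbour H3c15, which shares its sequence, had 65.7 to 91.4 normalized counts among controls, 77.5 to 97.2 in IH and 53.3 to 83.9 in SH. Cell proliferation markers, of which 8 of 21 were in the table, summed to 779 to 897 in control, 795 to 1052 in IH and 787 to 940 in SH. None of the 7 tested proliferation markers changed in any comparison.

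**Figure D4:**
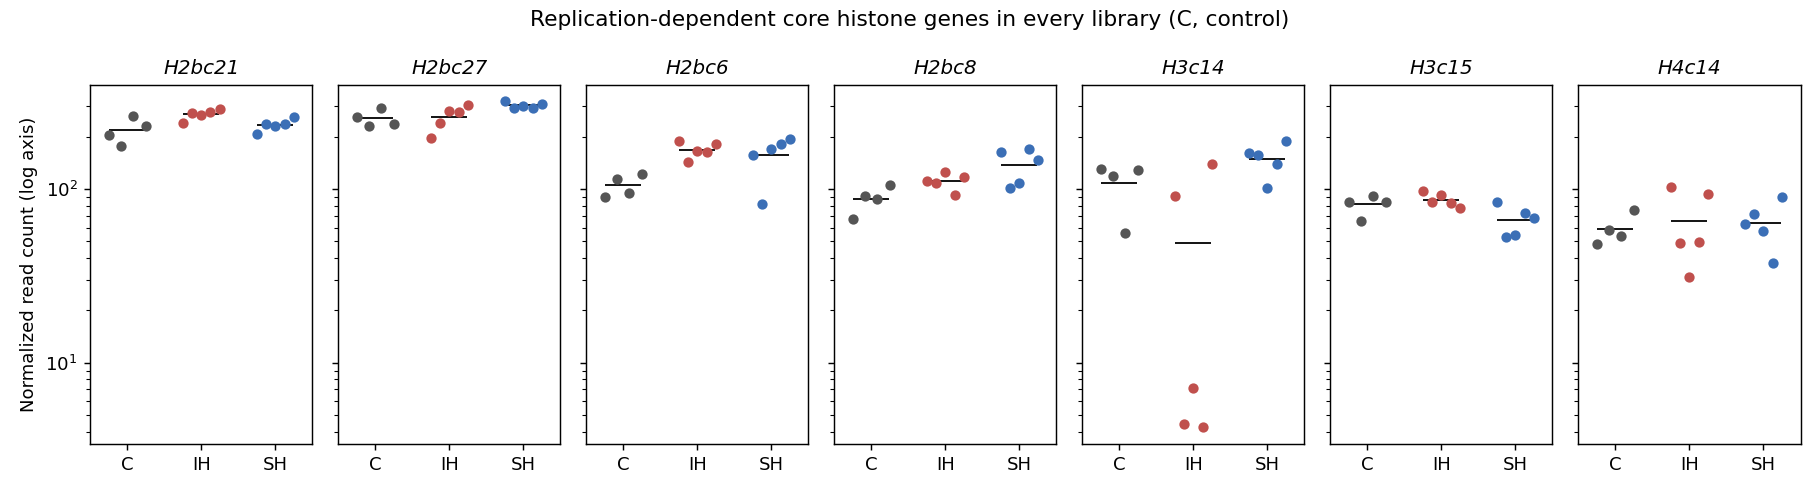
Normalized read counts on a log axis (y axis) of the 7 replication-dependent core histone genes in each control (C), IH and SH library (points), with a line at the group mean. H3c14 falls to between 4.23 and 7.16 in 3 IH libraries, while its neighbour H3c15 stays between 53.3 and 97.2 in every library.

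Among replication-independent core histone variants, H2ax was lower in SH and H2az2 higher in IH. H2ax encodes the histone H2A variant that is phosphorylated around DNA breaks. In order of replicate, its counts after normalization were 627, 628, 664 and 610.4 in control, 578, 577, 698, 527 and 560.3 in IH, and 519.8, 462, 498, 434 and 458 in SH. Every SH library was below every control and IH library. SH was 25.0% below control (log2 fold change -0.41, SE 0.08, adjusted p = 0.00472, edgeR), and IH vs. SH did not pass (0.31, SE 0.08, adjusted p = 0.0583, edgeR). H2ax was higher in IH than in SH by DESeq2 (adjusted p = 0.0242), with the 80th percentile scaling of the study (adjusted p = 0.0457, edgeR) and without SH replicate 1 (adjusted p = 0.0445, edgeR).

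With the GC content and length trends removed, the SH difference of H2ax was -0.080 (adjusted p = 0.559, edgeR), and its transcript has 62.3% GC. H2az2 encodes a form of H2A.Z, a variant placed at promoters. Values after normalization were 364, 389, 452 and 428 in control, 489, 542, 488, 510.1 and 539.9 in IH, and 473, 506, 518, 424 and 427 in SH. All IH libraries exceeded all control libraries, and SH overlapped both groups. IH was above control by 0.33 (SE 0.09, adjusted p = 0.0265, edgeR), and by 0.34 with those trends removed (adjusted p = 0.0292, edgeR). It did not pass without control replicate 1 or 2 or IH replicate 2 or 5 (0.28 to 0.31, adjusted p between 0.0566 and 0.0912, edgeR).

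H2az1, the other H2A.Z gene, had the highest level per length of the histone genes, at 1260.3 normalized counts per kilobase in control. It passed no test, with a log2 fold change of -0.10 for IH and -0.04 for SH against control (SE 0.07 for both). H3f3c, also named after its values were seen, did not reach the count limit in each group and was not tested. Its mean normalized counts were 78.6 in control, 37.6 in IH and 35.7 in SH. It ranged from 24 to 128 normalized counts among controls, from 1.06 to 114 in IH and from 15.7 to 83.8 in SH. The annotation calls it a processed pseudogene, and it shares sequence with 17 other genes.

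Kdm7a was the 1 of the 4 JmjC genes with a Kdm symbol that changed in the edgeR fit of all 3 groups, and Kdm6a passed in some alternatives. Kdm7a (ENSMUSG00000042599, chr6:39113554-39183728, minus strand, GRCm39) encodes a JmjC enzyme that removes repressive methyl groups from histone H3. Its normalized counts were 1791, 2016, 2472 and 2308 in control, 3298, 2845, 2983, 3005 and 3296 in IH, and 2534, 2878, 2836, 3663 and 3480.4 in SH. All exposed libraries were above all control libraries. The means were 2147 ± 303 (SD, n = 4), 3085 ± 203 (SD, n = 5) and 3078 ± 474 (SD, n = 5).

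IH was 1.44-fold above control in Kdm7a (log2 fold change 0.52, SE 0.11, adjusted p = 0.00902, edgeR) and SH 1.43-fold (0.52, SE 0.11, adjusted p = 0.00559, edgeR). IH and SH differed by 0.0038 (SE 0.10, adjusted p = 0.994, edgeR). Its transcript has the lowest GC content of the 47, 39.6%, and with the GC content and length trends removed the differences were 0.35 (adjusted p = 0.0431, edgeR) and 0.34 (adjusted p = 0.0441, edgeR).

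Kdm6a, Kdm6b and Kdm8 had no adjusted p under 0.05 in that fit. Kdm6a and Kdm6b remove the methyl mark that PRC2 places. Kdm6a, which is X-linked, had 608 to 735 normalized counts among controls, 674 to 825 in IH and 721 to 889.6 in SH, with log2 fold changes against control of 0.24 for SH (SE 0.09, adjusted p = 0.0584, edgeR) and 0.12 for IH (SE 0.09, adjusted p = 0.357, edgeR). The SH difference of Kdm6a passed in 6 of 23 alternatives, namely DESeq2 (adjusted p = 0.0495), library total scaling (adjusted p = 0.0415, edgeR), the choroid plexus covariate (adjusted p = 0.0199, edgeR), and when SH replicate 1, IH replicate 5 or control replicate 3 was left out. Kdm6b ranged from 1234 to 1664 in control, from 1140.2 to 1391 in IH and from 1237 to 1409.9 in SH, with log2 fold changes of -0.10 and -0.08 (SE 0.09 for both, adjusted p = 0.454 and 0.555, edgeR). Kdm8, a JmjC protein, had 103 to 126 in control, 93.0 to 119 in IH and 122 to 143 in SH, so that IH lay wholly below SH (log2 fold change -0.27, SE 0.12, adjusted p = 0.279, edgeR).

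Tet1 was among the lowest of these genes per length, at 28.1 normalized counts per kilobase in control. It had 394 to 418 normalized counts among controls, 243 to 547 in IH and 377 to 513 in SH, so that IH spread beyond the range of control on both sides and replicate 3 was its lowest library. Its log2 fold change was 0.05 in IH (SE 0.17, adjusted p = 0.871, edgeR) and 0.13 in SH (SE 0.17, adjusted p = 0.630, edgeR). Kdm1b is a flavin-dependent demethylase and not a JmjC enzyme. It had 256 to 282 normalized counts among controls, 302 to 398 in IH and 277 to 391 in SH, and its differences of 0.32 and 0.31 (SE 0.12 for both) did not pass (adjusted p = 0.0777 and 0.0651, edgeR). Kdm1b overlaps Dek and Tpmt on the opposite strand.

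**Figure D5:**
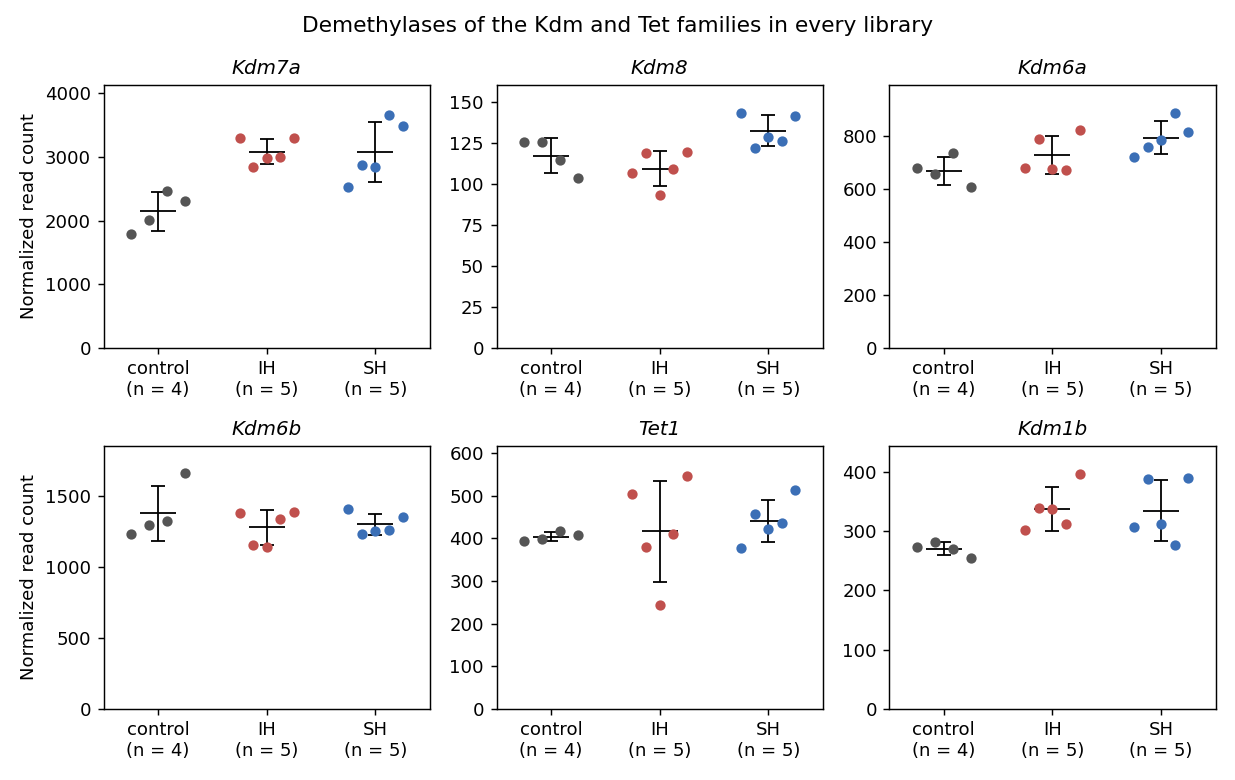
Normalized read counts (y axis) of the 5 Kdm genes and Tet1 in each library (points) of the control, IH and SH groups (x axis), with bars for the mean ± SD. The IH and SH libraries of Kdm7a all lie above 2472, the highest control value, while the groups of Kdm6b and Tet1 overlap.

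Zinc-dependent deacetylases were lower where they changed. Hdac5, a deacetylase that shuttles between nucleus and cytoplasm in neurons, had 4358, 4118, 4001 and 3998 normalized counts in control, 3582, 3804, 3363, 3386 and 3701 in IH, and 3631, 3160.5, 3303, 3529.6 and 3465 in SH. All exposed libraries were below all control libraries. IH was 13.4% below control (log2 fold change -0.21, SE 0.06, adjusted p = 0.0275, edgeR) and SH 17.0% below (-0.27, SE 0.06, adjusted p = 0.00518, edgeR). The IH call was lost without control replicate 1, 2 or 4 or IH replicate 1 or 4 (-0.18 to -0.22, adjusted p between 0.0501 and 0.0916, edgeR). Hdac5 overlaps G6pc3 on the opposite strand.

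Hdac11, the enzyme of the smallest deacetylase class, had 4352, 3884, 3642 and 3836 normalized counts in control, 3529, 3507, 3689, 3602 and 3609.5 in IH, and 3471, 3523, 3204, 3139.8 and 3203 in SH. Every SH library was below every control library, and IH replicate 3 was above the lowest control. SH was 15.8% below control (-0.25, SE 0.06, adjusted p = 0.00786, edgeR). At 1455 normalized counts per kilobase in control it had the highest level of the 47, above Sirt2 at 1374. The calls of Hdac5 and Hdac11 were lost when the GC content and length trends were removed (adjusted p between 0.358 and 0.404, edgeR). Hdac8 and Hdac9 passed no test.

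Of the 5 sirtuins, Sirt6, a nuclear deacetylase involved in DNA repair, was lower in SH. Its normalized counts were 380.4, 408, 335 and 386 in control, 342, 337, 353, 325 and 337 in IH, and 344, 315, 316, 309.9 and 319.8 in SH. SH replicate 1 lay above control replicate 3, so the groups overlapped. SH was below control by 0.23 on the log2 scale (log2 fold change -0.23, SE 0.08, adjusted p = 0.0443, edgeR). The call was lost in 17 of 23 alternatives (-0.13 to -0.24, adjusted p between 0.0541 and 0.300, edgeR or DESeq2). Sirt6 overlaps Ankrd24 and BC025920 on the opposite strand. Sirt1, a nuclear enzyme, Sirt2, a mainly cytoplasmic one, and the mitochondrial Sirt3 and Sirt5 passed no test.

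Among methyltransferases, Setd1b, a catalytic subunit of a complex that methylates histone H3 at promoters, was lower in SH. It had 1522, 1403, 1373 and 1638 normalized counts in control, 1425, 1305, 1134, 1444 and 1442 in IH, and 1316, 1249.8, 1208, 1173 and 1223 in SH. Every SH library was below every control library, and IH overlapped both groups. SH was 16.8% below control (-0.27, SE 0.08, adjusted p = 0.0273, edgeR), and with the GC content and length trends removed the difference was -0.10 (adjusted p = 0.327, edgeR). The call was also lost without control replicate 1 or 4 or SH replicate 3 or 4 (adjusted p between 0.0508 and 0.0902, edgeR). Kmt2b, Kmt2d and Kmt2e of the Kmt2 family, Setd6 and the acetyltransferase Kat2b passed no test. The Kmt log2 fold changes were between -0.20 and 0.03 in IH and between -0.21 and 0.15 in SH.

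Other genes of the same machinery were counted by list. Together they held 87 tested genes, of which 4 were higher and 4 lower in IH (4.60% each, beside 6.08% and 4.85% of all genes), 13 higher and 10 lower in SH (14.9% and 11.5%, beside 10.1% and 10.5%), and 1 higher and none lower in IH vs. SH (beside 1.47% and 0.899%). These shares of all genes are also the background for the counts of each list below. Of 14 further PRC1 genes tested, 2 were higher and 1 lower in IH, 4 higher and 2 lower in SH, and 1 higher in IH vs. SH. Their leading genes were L3mbtl3, a methyl-lysine reader, in IH (log2 fold change 0.59, SE 0.11, adjusted p = 0.00398, edgeR), Rybp, a subunit of variant PRC1, in SH (0.37, SE 0.06, adjusted p = 0.00156, edgeR), and Fbrs in IH vs. SH (0.36, SE 0.06, adjusted p = 0.0103, edgeR). Of 7 further PRC2 genes, none changed in IH, and in SH 1 was higher and 3 lower, led by Epop, a PRC2 partner (-0.52, SE 0.10, adjusted p = 0.00394, edgeR). None of the 11 other histones and histone chaperones changed in any comparison.

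Of 12 other histone methyltransferases, Nsd3 alone was higher in SH (0.18, SE 0.06, adjusted p = 0.0379, edgeR). Of 4 COMPASS partners, Hcfc2 was higher in IH (0.37, SE 0.10, adjusted p = 0.0304, edgeR) and in SH (0.38, SE 0.10, adjusted p = 0.0187, edgeR). Of 8 other acetyltransferase genes, 2 were higher in SH, led by Hat1 (0.45, SE 0.15, adjusted p = 0.0424, edgeR). Of 15 deacetylase corepressors, 1 was lower in IH, and 2 were higher and 1 lower in SH. The lower gene was Sap30l, a subunit of the Sin3 complex, which ranged from 646 to 759.5 normalized counts in control, from 347 to 489 in IH and from 388 to 424 in SH. No exposed library of Sap30l reached the control range (log2 fold change -0.80 in IH, adjusted p = 0.00029, and -0.81 in SH, adjusted p = 0.000181, edgeR).

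Of 7 other JmjC genes, 1 was higher and 1 lower in both comparisons with control. Uty, the Y-linked relative of Kdm6a, was higher in IH by 0.47 (SE 0.10, adjusted p = 0.00875, edgeR), and Riox1, a ribosomal oxygenase, lower in SH (-0.46, SE 0.11, adjusted p = 0.00762, edgeR). Of 2 oxygen-sensing hydroxylases tested, Egln2, which marks the hypoxia-inducible factor for degradation, was lower in SH (-0.24, SE 0.07, adjusted p = 0.0306, edgeR). Of 9 DNA methylation readers and partners, 1 was lower in IH, Gadd45b (-0.59, SE 0.14, adjusted p = 0.0141, edgeR), and 2 were higher and 2 lower in SH, led by Ogt (0.25, SE 0.06, adjusted p = 0.00918, edgeR). In IH vs. SH, Fbrs was the only gene of these lists that changed. The median log2 fold changes of the 10 lists were between -0.06 and 0.14 for IH and between -0.03 and 0.20 for SH against control, and between -0.08 and 0.01 for IH against SH.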

How the data were processed

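RNA-seq of hippocampus from 4 control, 5 IH and 5 SH libraries was used. The authors made poly(A)-selected, strand-specific libraries, trimmed reads with fastp 0.23.4, aligned them to GRCm39 with HISAT2 2.2.1 and quantified them with StringTie 2.2.1. The strand setting of the counting is not given in the sources used here. The deposited values are estimated counts per gene, without normalization. Fractional values, in 10 genes, were rounded.

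The 7338 genes whose mean reached 40 counts in each group were fitted in edgeR 4.0.16 under R 4.3.3, by its quasi-likelihood test with TMM scaling, over the 3 groups together. P-values were adjusted over these genes by the Benjamini-Hochberg method, and so only over genes already kept for a signal that differed from control. An adjustment over all expressed genes was not made. The model was tested on simulated data. For normalized counts, each count was divided by the library's TMM-scaled size relative to the mean size. Levels per kilobase divide these by the transcript length. Length, GC content and location were taken from GENCODE on GRCm39 (all 47 genes matched). Copies were transcripts with at least 95% identity over 50% of the length. Promoters were matched by symbol in RefSeq on GRCm38.p6, and coordinates of the 2 builds were not mixed.

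The genes, the lists of other genes and the tests were chosen with earlier results of these data known. Named genes were H1f10, Phc3, every gene with an adjusted p under 0.05, all Kdm and Tet genes, the 3 histone genes with the highest level per length, and the leading called gene of each list. Alternatives were DESeq2 1.42.0, 80th percentile and library total scaling, no filter, filterByExpr, only the groups compared, a replicate block, GC content and length trends removed, a choroid plexus covariate, the study's limits and leaving out each library. Same-numbered libraries were not treated as pairs. Their deviations from the group means correlated between -0.296 and 0.466 over 13 pairs, above 0.1 in 6. No libraries of the same group were duplicates of each other (chi-square per degree of freedom at least 8.96 over 26 pairs). Pairs across groups were not checked for this.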

Additional observations from a re-analysis of the deposited data

Results flagged for a closer look

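H1f10 and Phc3 were flagged because the effects of IH and SH differed, as tested by IH vs. SH. The log2 fold change was -0.51 for H1f10 and -1.30 for Phc3. In Phc3, IH replicate 3 stood apart from its group at 2258 normalized counts, and control replicate 1 stood apart at 573. In Pcgf3, IH replicate 1 stood above its group at 1409.6, and in Sirt6 SH replicate 1 stood above its group at 344. In H3c14, control replicate 3 stood below its group at 55.8. In H3f3c, IH replicate 3 stood above its group at 114 and SH replicate 3 at 83.8. Over the 21 genes named by rule, 4 libraries stood apart in 63 groups of values, where chance flags about 1 in 20 groups, and 2 of the 4 were in Phc3, which was chosen with earlier results known. H3c14 and H3f3c were named after their values were seen and are not counted in this.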

How the results depend on the processing

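Over the 23 alternatives that refit the model, 5 of the 19 called differences of single genes kept their call and direction in each: H1f10 in IH vs. control and IH vs. SH, Phc3 in SH vs. control and Kdm7a in both comparisons with control. Under the study's limits, H1f10 in IH vs. SH (-0.51) and Kdm7a in IH and SH (both 0.52) were inside the fold limit of 0.58 and not called. The other 14 were lost in at least 1 of the 23, 12 of them when the GC content and length trends were removed. In this fit, 3 genes were called for IH and 4 for SH against control, H2bc27 newly, and 1 for IH against SH, of 406, 478 and 162 genes in all, against 6, 11 and 2 of 802, 1513 and 174. The fit of only the groups compared left 1 in IH vs. SH, of 64 genes in all. The study's limits gave 2 in IH vs. control and 3 in SH vs. control, of 197 and 199 in all. Leaving out each library gave 2 to 6, 7 to 13 and 1 to 3 called genes. IH vs. control fell to 2 without control replicate 1 or 2 and to 3 without IH replicate 1, 2 or 5. Over all genes the calls fell there from 802 to 408, 386, 558, 574 and 598, in that order. SH vs. control fell to 7 without control replicate 1, of 906 genes in all. IH vs. SH fell to 1 without IH replicate 1, 2 or 4 or SH replicate 2 or 4, where Phc3 was lost, of 88 to 97 genes in all. The 80th percentile scaling called 2 higher and 2 lower in IH vs. control and 1 higher and 2 lower in IH vs. SH, of 823 and 185 in all. DESeq2 called 8 higher and 5 lower in SH vs. control, and library total scaling 7 and 5, of 1708 and 1543 in all. With the replicate block, 4, 8 and 2 genes were called, of 738, 1443 and 148 in all. There, 5 of the 19 calls were lost, H2bc6 and Pcgf5 in IH vs. control and H2bc8, Suz12 and Sirt6 in SH vs. control. Differences called in some of the 23 alternatives alone were those of Kdm6a (6), Kat2b (4), H2bc6 (2), Kmt2d (2), H2bc27 (1) and Kdm1b (1) in SH vs. control, Suz12 (5) and H2bc21 (1) in IH vs. control, and H2ax (3) and Kmt2d (1) in IH vs. SH. No same-numbered pairing is stated, and 6 of 13 pairs correlated above 0.1.

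Of 66 differences of single genes, 15 changed sign in some alternative, and 1 of these was a call. With the GC content and length trends removed, the log2 fold change was 0.00086 for H1f10 and 0.067 for Kdm6b and 0.062 for H2az1 in SH vs. control, 0.14 for H2ax, -0.029 for Pcgf3, -0.083 for Tet1, 0.0052 for Kdm6b and -0.043 for Kdm6a in IH vs. control, and -0.0057 for H1f0 in IH vs. SH. Without a filter it was -0.00030 for Kdm7a and -0.00041 for H1f0 in IH vs. SH, and with the replicate block -0.068 for Tet1 in IH vs. control. Leaving out each library gave, in IH vs. SH, -0.059 to 0.20 for H2bc6, -0.11 to 0.0096 for Suz12, -0.058 to 0.074 for Kdm7a, -0.20 to 0.062 for Tet1, -0.054 to 0.074 for Kdm1b, -0.055 to 0.016 for Kdm6b and -0.039 to 0.052 for H1f0. It gave -0.072 to 0.19 for Tet1 in IH vs. control, and -0.13 to 0.021 for Kdm6b and -0.066 to 0.0058 for H2az1 in SH vs. control. The cause of these changes was not tested. Counting error weighs most on the lowest values, such as H3c14 between 4.23 and 7.16 normalized counts in 3 IH libraries, and the part of depth in its spread was not tested.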
